A study of Homo sapiens with 23 samples.

Results

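In OPM2, a human multiple myeloma cell line, a guide RNA against IRF4 was compared with a guide named EV, with 3 libraries in each group. These 6 libraries, taken by their labels, were compared across all expressed genes, out of 23 RNA-seq libraries from 4 Cas9-expressing myeloma lines (H929, MM1S, OPM2 and RPMI-8226). By the sources used here, both groups of OPM2 cells carried Cas9 and a guide, and both had been given doxycycline for 48 hours. Doxycycline turned the guide on, and the guide was the only stated difference between the groups. The IRF4 group rested on 1 guide at 1 time. The sources used here gave neither the guide's sequence nor what EV stands for, so whether Cas9 cut DNA in the EV cells is not known. Since nothing marks the replicates as independent cultures, p-values reflect only how far these 6 samples scattered, and that scatter may be technical.

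IRF4 is a transcription factor of the interferon regulatory factor family that drives B cells to become antibody-secreting plasma cells. It binds DNA weakly alone and more strongly beside ETS or AP-1 partners, and at interferon-response elements, where it can activate or repress. Myeloma cells, which are malignant plasma cells, depend on it for survival, and the series asked how its loss reaches the BCL2 family of cell-death regulators, in which BMF and BIM (gene BCL2L11) are killers.

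The libraries held 27846502, 20320894 and 22559364 counts with the IRF4 guide and 27485362, 8550347 and 22794645 with EV. Levels are given as CPM, counts scaled to a common library size after TMM adjustment. Plasma cell genes marked the line as labelled. With EV, SDC1 (CD138) was at 1238 to 1315 CPM, XBP1 at 2005 to 2236 CPM and JCHAIN at 5892 to 7043 CPM. FGFR3 and NSD2, the oncogenes switched on by a chromosome translocation that this line carries, were at 2001 to 2424 and 1485 to 1602 CPM. Markers of other cells were low. The summed level of 12 myeloid markers was 3.70 to 6.50 CPM with the IRF4 guide and 2.89 to 4.53 CPM with EV, with FCGR3A, MPO and ELANE at 0. The sum of 14 stromal and epithelial markers was 3.13 to 3.78 against 8.23 to 9.62 CPM, most of it the endothelial and platelet adhesion gene PECAM1 (2.45 against 8.60 CPM), and the sum of 12 erythroid and megakaryocyte markers was 3.78 to 4.45 against 2.80 to 3.85 CPM. The sum of 14 T and NK cell markers moved with the guide, from 0.244 to 0.762 CPM with EV to 17.9 to 20.8 CPM, while CD3D and CD8A were at 0 in all 6 libraries. Its part in the results was not tested. In bulk RNA, fewer cells of a kind and less RNA per cell cannot be told apart.

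IRF4 itself (chromosome 6, 391752 to 411443, GRCh38) was lower with its guide, though far from absent. It was at 917, 1364 and 919 CPM in the IRF4 guide replicates and at 1610, 2086 and 1352 CPM in the EV replicates. The groups overlapped by a narrow margin, since replicate 2 was the highest of its group in both, and within each replicate number the IRF4 guide library was the lower. The log2 fold change was -0.66 ± 0.05 (SE, edgeR quasi-likelihood test with replicate number as a block, Benjamini-Hochberg adjusted p = 1.76e-10). Without the block it was -0.66 with an adjusted p of 0.0412. A Cas9 lesion alters the reading frame of a transcript without having to remove it, so the RNA level does not measure the protein.

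Genes beside IRF4 gave no common shift. Of the 5 tested genes within 2 Mb on chromosome 6, the nearest, the phosphatase DUSP22 and the exocyst subunit EXOC2, were not called (-0.02 ± 0.05 and 0.07 ± 0.06). The sugar-nucleotide enzyme GMDS fell (-0.46 ± 0.08, adjusted p = 1.55e-05). The forkhead factor FOXC1 and the lncRNA GMDS-DT rose by 1.01 ± 0.29 and 0.58 ± 0.22 (adjusted p = 0.00442 and 0.0258), but both were under 3 CPM and neither was called with DESeq2 (adjusted p = 0.0800 and 0.183) or on the deposited log2 RPKM (0.237 and 0.800).

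The response was broad. Of 13095 tested genes, 8566 (65.4%) passed an adjusted p of 0.05, with 4257 higher (32.5%) and 4309 lower (32.9%), so that 49.7% of the called genes were higher. Scaling by library totals alone moved that share to 62.3%, since it moved the median log2 fold change of all genes from 0.00525 to 0.117. The large changes were mostly rises, many of them from low levels. At 2-fold or more, 1348 genes (10.3%) were higher and 198 (1.51%) lower, and at 4-fold or more 527 were higher and 6 lower. Of the 1348, 741 had an EV mean under 1 CPM, where a gene could pass the filter through the IRF4 guide libraries. At 1 CPM or more with EV, 607 genes were at least 2-fold higher and 180 lower. Over 100 CPM with EV, 14 were higher and 33 lower. On the deposited log2 RPKM 1048 genes were at least 2-fold higher and 640 lower.

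Calls in each direction were unevenly spread over levels, taken here as the mean over all 6 libraries. Of 1264 genes under 1 CPM, 470 (37.2%) rose and 54 (4.27%) fell, and of 2539 genes over 100 CPM, 610 (24%) rose and 1393 (54.9%) fell. A weakly expressed gene needs a larger change to be called, and it can pass the filter on low counts through 1 group alone. More genes were detected with the IRF4 guide, 17276 to 17892 with at least 1 count against 14847 to 16636. The EV replicate with the fewest counts also had the fewest genes. The test could call 22 genes with 0 counts in all 3 EV libraries, and no gene with 0 counts in all 3 IRF4 guide libraries was tested.

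**Figure D1:**
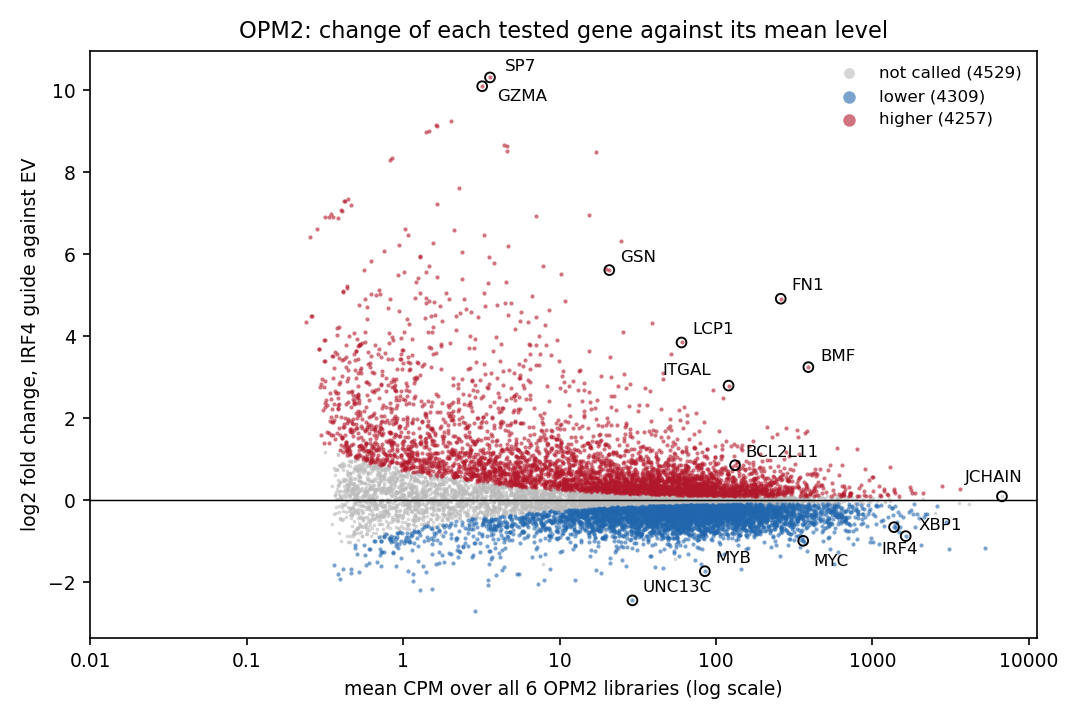
Log2 fold change of each of 13095 tested genes in OPM2 (y axis, IRF4 guide against EV) against its mean CPM over all 6 libraries (x axis, log scale), coloured by call. The tallest red points lie at the left and centre, where 470 of 1264 genes under 1 CPM rose, and the blue calls gather at the right, where 1393 of 2539 genes over 100 CPM fell.

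The killers BMF and BCL2L11 were both higher with the IRF4 guide. BMF, a BH3-only protein that inactivates pro-survival BCL2 proteins, was at 742, 718 and 654 CPM with the IRF4 guide and at 67.9, 68.7 and 85.9 CPM with EV. The groups did not overlap, as in 60.1% of all tested genes, and stood far apart, a 9.47-fold rise (log2 3.24 ± 0.13, adjusted p = 6.43e-05). It was also among the 5 largest gains in mean CPM of all called genes. BCL2L11, which encodes BIM, was at 158, 168 and 184 against 87.7, 98.3 and 97.8 CPM, again without overlap, a 1.8-fold rise (0.85 ± 0.05, adjusted p = 4.07e-13).

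Of 10 tested pro-apoptotic members, 4 rose and 2 fell, beside 32.5% and 32.9% of all genes, with a median log2 fold change of 0.09 against 0.01. With DESeq2, or without replicate 1 or 3, 2 of them rose. BBC3 (PUMA) and HRK, BH3-only sensitizers and activators, were also called higher at low levels. BBC3 went from 2.25 to 3.35 CPM on average (0.62 ± 0.20, adjusted p = 0.00926), a call lost without replicate 1 or 3 (adjusted p = 0.109 and 0.0661), with DESeq2 (0.131), in a fit of all 23 libraries without the block (0.0669) and on the deposited log2 RPKM (0.07, adjusted p = 0.745). HRK went from 0.67 to 1.23 CPM (0.90 ± 0.33, adjusted p = 0.0199) and was lost without replicate 1 or 3 (0.0705 and 0.143), with DESeq2 (0.188) and on the deposited log2 RPKM (0.23, adjusted p = 0.402). The pore former BAK1 fell from 133 to 84.8 CPM (-0.65 ± 0.07, adjusted p = 3.89e-06), and BID, which links death receptors to mitochondria, fell from 40.8 to 30.9 CPM (-0.40 ± 0.06, adjusted p = 9.06e-06). BAX, PMAIP1 (NOXA), BAD and BIK were not called, at 0.11 ± 0.06, -0.07 ± 0.07, 0.06 ± 0.09 and -0.36 ± 0.25.

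Among pro-survival members, 4 were tested and 1 rose. MCL1, on which myeloma cells lean, was at 729, 682 and 786 against 608, 585 and 615 CPM (0.28 ± 0.04, adjusted p = 3.00e-06). All 3 IRF4 guide libraries lay above all 3 EV libraries, at a rise far smaller than that of BMF. BCL2, BCL2L1 (BCL-XL) and BCL2L2 (BCL-W) were not called, at -0.04 ± 0.04, 0.09 ± 0.07 and 0.01 ± 0.17. Downstream, 7 of 18 caspases and death-receptor genes rose and 7 fell, near the 32.5% and 32.9% of all genes. CYCS, the cytochrome c that caspase activation needs, fell by 0.89 ± 0.05 (adjusted p = 2.83e-11). CASP8, the initiator of the death-receptor route, rose by 0.38 ± 0.05 (adjusted p = 5.90e-07), the TRAIL receptor TNFRSF10B by 0.54 ± 0.07 (2.57e-07) and the inhibitor BIRC3 by 2.35 ± 0.26 (4.85e-08).

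**Figure D2:**
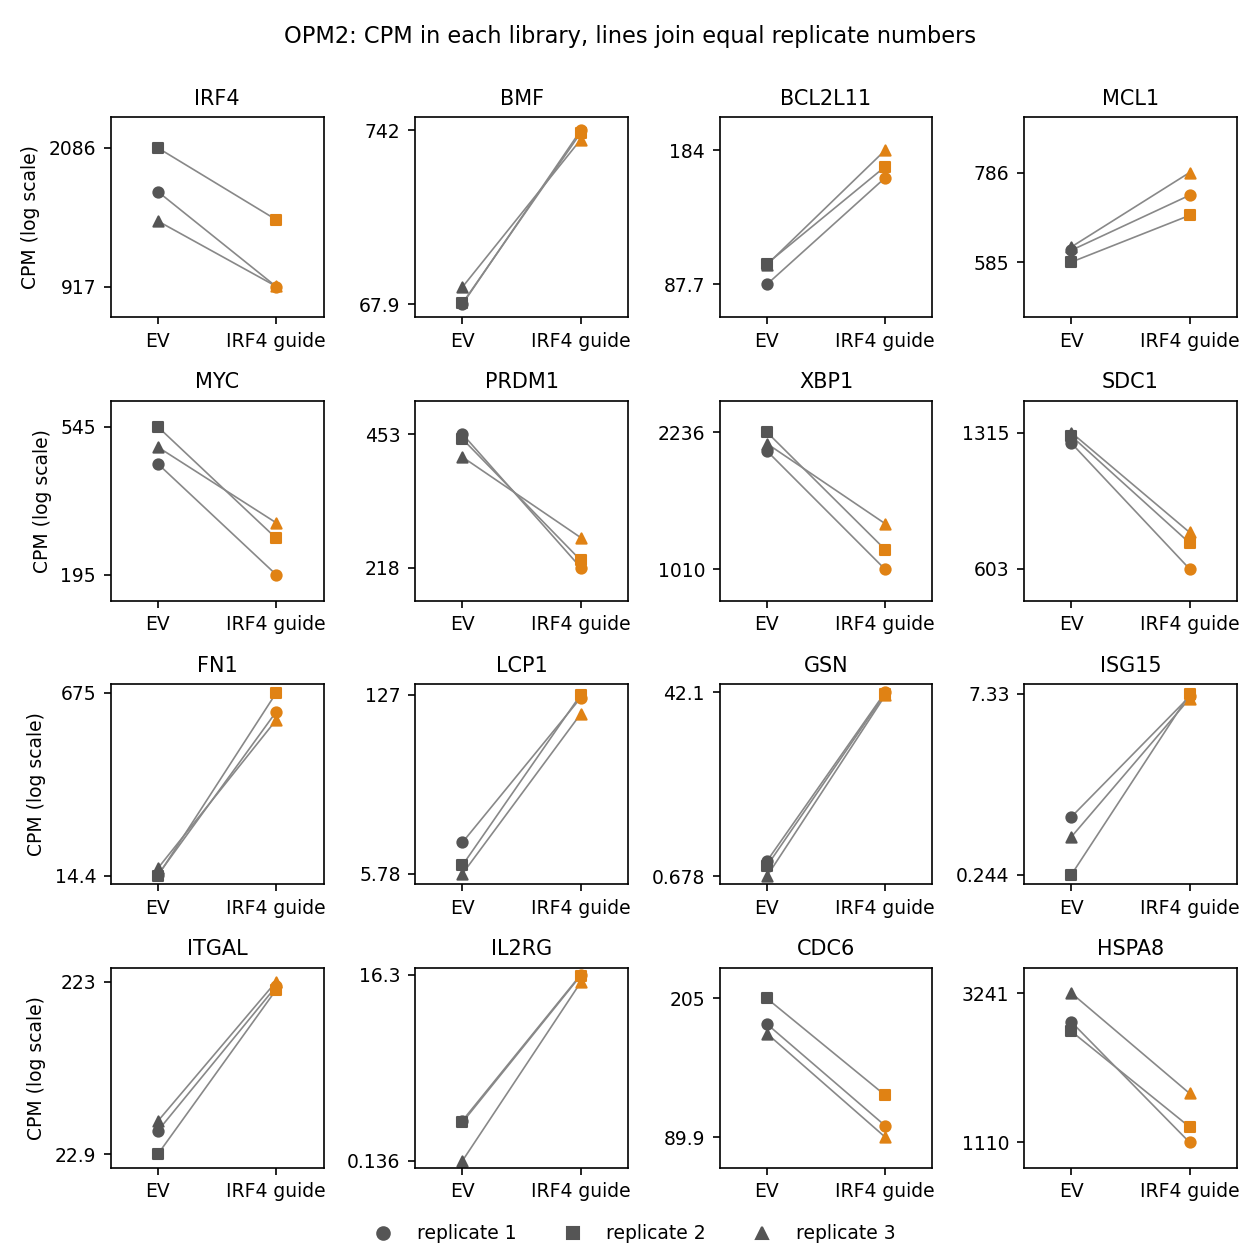
CPM of 16 genes in each OPM2 library (y axis, log scale with its own range per panel, marked at the lowest and highest library), EV at the left and IRF4 guide at the right, with lines joining equal replicate numbers. BMF rose from 67.9 to 85.9 CPM up to 654 to 742 CPM, while IRF4 fell within each replicate number with overlapping groups.

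Genes tied to IRF4 in myeloma fell almost as a block. Of 16 tested, 15 were lower and none higher, with a median of -0.94, beside 32.9% and 32.5% of all genes. MYC, the growth-promoting factor, was at 195, 251 and 280 CPM against 421, 545 and 474 CPM. The groups did not overlap, and the fall was by 1.00 ± 0.07 on the log2 scale (adjusted p = 1.40e-07). PRDM1 (BLIMP1), the partner of IRF4 in plasma cell fate, was at 218, 227 and 257 against 453, 441 and 399 CPM (-0.88 ± 0.08, adjusted p = 1.27e-05). CAV1, a structural protein of membrane pits, was at 68.6 against 220 CPM (-1.69 ± 0.06, adjusted p = 2.96e-14), and the pyruvate dehydrogenase kinase PDK1 at 94.3 against 217 CPM (-1.20 ± 0.05, adjusted p = 3.08e-13).

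KLF2 and MYB had large falls with less certain tests. KLF2, a lymphocyte homing factor, was at 16.4, 22.1 and 20.4 against 69.8, 75.8 and 41.0 CPM (-1.64 ± 0.30, adjusted p = 0.0332). MYB, a proto-oncogene of blood progenitors, was at 31.0, 37.2 and 50.9 against 143, 119 and 128 CPM (-1.74 ± 0.24, adjusted p = 0.0192). In both genes the groups did not overlap. KLF2 lost its call without replicate 1 or 2 (adjusted p = 0.0677 and 0.132) and MYB without replicate 2 (0.0871), and both without a filter on low counts (0.0798 and 0.0523). The cohesin subunit STAG2, at 0.07 ± 0.04, was the member not called.

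The plasma cell programme went down with exceptions. Of 22 tested identity genes, 16 fell and 5 rose, with a median of -0.66, beside 32.9% and 32.5% of all genes. SDC1, the plasma cell surface proteoglycan, was at 603, 699 and 743 against 1238, 1289 and 1315 CPM (-0.92 ± 0.04, adjusted p = 1.37e-13). XBP1, the factor that builds the secretory apparatus, was at 1010, 1132 and 1316 against 2005, 2236 and 2093 CPM (-0.88 ± 0.06, adjusted p = 6.17e-09). In both, every IRF4 guide library lay below every EV library.

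The surface receptor SLAMF7 fell by 1.09 ± 0.05, the disulfide isomerase TXNDC5 by 1.10 ± 0.06 and the ER cochaperone MZB1 by 0.79 ± 0.05 (adjusted p = 5.25e-11, 5.21e-10 and 1.47e-10). CD28, a costimulatory receptor found on myeloma cells, rose from 222 to 350 CPM (0.66 ± 0.04, adjusted p = 4.49e-12), and the Fc receptor homologue FCRL5 from 0.177 to 1.42 CPM (2.80 ± 0.42, adjusted p = 4.19e-06). JCHAIN, the joining chain of polymeric antibody, was the member not called, at 6934 against 6529 CPM (0.09 ± 0.05, adjusted p = 0.122), with overlapping groups. It was called higher without replicate 1 (0.16, adjusted p = 0.00107), with library totals alone (0.20, 0.00118) and on the deposited log2 RPKM (0.39, 9.65e-05).

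Light-chain RNA gave the largest falls in CPM of all called genes. IGLV3-25, a lambda variable segment, was at 2836, 3593 and 3193 CPM against 7153, 7796 and 6669 CPM, and the lambda constant region IGLC3 at 1659, 2002 and 1933 against 4160, 4623 and 4025 CPM. The falls were by 1.17 ± 0.05 and 1.20 ± 0.05 (adjusted p = 1.09e-13 and 3.00e-14), with no overlap. IGLV3-25 was not called in a fit of all 23 libraries without the block (adjusted p = 0.0720). Of 10 tested variable segments 8 fell, all of the IGLV3 family, such as IGLV3-12 by 1.24 ± 0.05 (adjusted p = 5.07e-15). Reads from near-identical segments can be split between family members, so these are not 8 separate observations.

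The secretory apparatus behind the antibody load went down too. Of 23 genes of the unfolded protein response, the programme that matches ER folding capacity to load, 17 fell and 2 rose (median -0.51). Among all genes 32.9% fell and 32.5% rose. Over 100 CPM, 12 of 16 members fell (median -0.55), beside 54.9% of all genes at that level (median -0.15). SDF2L1, an ER cochaperone, was at 27.1, 36.0 and 34.0 against 65.8, 73.0 and 65.2 CPM (-1.08 ± 0.07, adjusted p = 1.39e-11). SEL1L, a scaffold of ER-associated degradation, was at 211 against 418 CPM (-0.98 ± 0.04, adjusted p = 8.53e-15). The master chaperone HSPA5 (BiP) fell by 0.55 ± 0.04 and the isomerase PDIA4 by 0.89 ± 0.05 (adjusted p = 9.87e-11 and 3.78e-10). Of 41 genes of ER translocation and vesicle export, 32 fell and 4 rose (median -0.26), beside 32.9% of all genes lower. Of these 41, 34 were over 100 CPM, where 26 fell, beside 54.9% of all genes at that level. The lower count was 26 without the block and 22 with library totals alone or on the deposited log2 RPKM. The translocon-associated SSR3 was at -0.74 ± 0.04 and the translocon subunit SEC61B at -0.63 ± 0.05 (adjusted p = 7.30e-13 and 7.91e-11).

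Protein quality control outside the ER followed. Of 32 proteasome subunits, 30 fell and none rose (median -0.31), with PSMD7, a lid subunit, at 251 against 411 CPM (-0.71 ± 0.04, adjusted p = 2.83e-12). Of 23 subunits over 100 CPM, 21 fell (median -0.29), beside 54.9% of all genes at that level (median -0.15). Of 20 cytosolic and mitochondrial chaperones, 18 fell and none rose (median -0.59). Over 100 CPM, 15 of 15 chaperones fell (median -0.60), beside the same 54.9% of all genes. HSPA8, the constitutive HSP70, was at 1110, 1240 and 1577 against 2634, 2462 and 3241 CPM (-1.09 ± 0.05, adjusted p = 1.41e-13), among the 5 largest falls in CPM. TRAM1, a translocon-associated protein, was also among these (2420 against 3506 CPM, -0.54 ± 0.07, adjusted p = 3.49e-05), but it was at -0.17 on the deposited log2 RPKM (adjusted p = 0.216). The lysosome went the other way. Of 25 lysosome and autophagy genes, 20 rose and 2 fell (median 0.53), beside 32.5% and 32.9% of all genes. Between 10 and 100 CPM, 14 of 18 members rose, beside 30.9% of all genes at that level. Cathepsin B (CTSB) was at 254 against 147 CPM (0.79 ± 0.04, adjusted p = 7.30e-13) and prosaposin (PSAP) at 738 against 481 CPM (0.62 ± 0.04, 1.23e-11). The autophagosome protein MAP1LC3B was at 95.3 against 54.3 CPM (0.81 ± 0.05, 1.47e-11).

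Growth genes fell, those of the nucleolus without exception. All 30 MYC targets and nucleolar genes were lower (median -0.78, against 32.9% of all genes lower). The ribosome assembly factor NOP16 was at 17.5, 21.4 and 17.5 against 48.5, 42.0 and 39.5 CPM (-1.23 ± 0.08, adjusted p = 1.16e-10), and the RNA helicase DDX21 at 372 against 688 CPM (-0.89 ± 0.04, adjusted p = 5.60e-14). Small nucleolar RNAs, which guide rRNA modification and sit in introns of such genes, also went 1 way. Of 106 tested, 41 fell and none rose (median -0.60), beside 32.9% and 32.5% of all genes. The share that fell was thus near that of all genes, and the lack of rises was not. SNORD28, for example, went from 5.14 to 2.58 CPM (-1.05 ± 0.20, adjusted p = 8.47e-05). The sources used here do not say how counting kept snoRNA reads apart from those of their host genes.

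Replication genes fell by smaller amounts. Of 30 G1/S and DNA replication genes 29 fell and none rose (median -0.51). Over 100 CPM, 14 of 14 members fell (median -0.46), beside 54.9% of all genes at that level (median -0.15). CDC6, which loads the replicative helicase, was at 96.2, 115 and 89.9 against 176, 205 and 166 CPM (-0.86 ± 0.04, adjusted p = 1.37e-13). MCM10 and the helicase subunit MCM4 fell by 0.72 ± 0.04 and 0.56 ± 0.04 (adjusted p = 3.61e-12 and 5.49e-11). Of 28 G2/M and mitosis genes 23 fell and 1 rose (median -0.26), with the checkpoint protein MAD2L1 at -0.73 ± 0.05 and cyclin A2 (CCNA2) at -0.39 ± 0.04 (adjusted p = 3.00e-11 and 4.45e-08). Without the block 14 of the 28 fell, and on the deposited log2 RPKM 15. Of 22 over 100 CPM, 18 fell (median -0.25), beside 54.9% of all genes at that level (median -0.15).

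All 14 tested D cyclins, CDKs and CDK inhibitors were called, 9 higher and 5 lower. Among all genes, 65.4% were called, 32.5% higher and 32.9% lower. Over 100 CPM, 4 of 8 members rose and 4 fell, beside 24% and 54.9% of all genes at that level. The D-type cyclins diverged. CCND2 was at 416 against 717 CPM (-0.79 ± 0.09, adjusted p = 0.000558) and CCND3 at 78.7 against 48.6 CPM (0.71 ± 0.06, adjusted p = 2.49e-10). Their partner CDK4 fell by 0.62 ± 0.04 (adjusted p = 4.54e-11), and the CDK inhibitors CDKN2B (p15), CDKN1C (p57) and CDKN1A (p21) rose by 0.88 ± 0.09, 0.85 ± 0.14 and 0.78 ± 0.15 (adjusted p = 1.53e-08, 1.18e-05 and 0.00351). The call of CDKN1A was lost without replicate 1 (adjusted p = 0.141).

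Biosynthetic and energy genes were lower as well. Of 22 genes of the ATF4 and amino acid response, 15 fell and 4 rose (median -0.66), beside 32.9% and 32.5% of all genes. Over 100 CPM, 8 of 10 members fell (median -0.83), beside 54.9% of all genes at that level (median -0.15). SLC7A5, the large amino acid carrier, was at 284, 396 and 381 against 725, 892 and 927 CPM (-1.27 ± 0.04, adjusted p = 1.97e-16), its heavy chain SLC3A2 fell by 0.85 ± 0.04 (7.80e-14), and the regulator ATF4 by 0.81 ± 0.04 (4.04e-13). CHAC1, a glutathione-degrading stress gene, had the steepest fall of the list, from 5.49 to 1.53 CPM (-1.94 ± 0.22, adjusted p = 5.29e-08). Replicate 3 was the highest in both its groups, and without the block the call was lost (adjusted p = 0.130).

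Of 28 sterol and fatty acid synthesis genes, 25 fell and none rose (median -0.68). Over 100 CPM, 17 of 18 members fell (median -0.71), beside 54.9% of all genes at that level (median -0.15). FASN, the fatty acid synthase, was at 501, 692 and 739 against 1087, 1398 and 1390 CPM (-1.02 ± 0.04, adjusted p = 1.16e-14), and the cholesterol enzyme SQLE fell by 1.07 ± 0.06 (4.74e-12). Of 22 glycolysis and hypoxia genes, 17 fell and 2 rose (median -0.37), with 12 of 14 lower over 100 CPM (median -0.41). LDHA, which makes lactate, was at 1078 against 1739 CPM (-0.69 ± 0.04, adjusted p = 5.36e-12). The hexokinases moved apart, with HK2 at -0.65 ± 0.04 and HK1 at 1.10 ± 0.20 (adjusted p = 1.75e-11 and 5.76e-05), HK1 at a mean of 1.68 CPM with EV. Of 24 oxidative phosphorylation genes, 21 fell and 1 rose by small amounts (median -0.20, cytochrome c1 CYC1 at -0.55 ± 0.04, adjusted p = 1.09e-10). Of 18 over 100 CPM, 17 fell (median -0.21), beside 54.9% of all genes at that level (median -0.15). The count of 21 lower genes was 13 without the block, 10 with library totals alone and 7 on the deposited log2 RPKM.

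**Figure D3:**
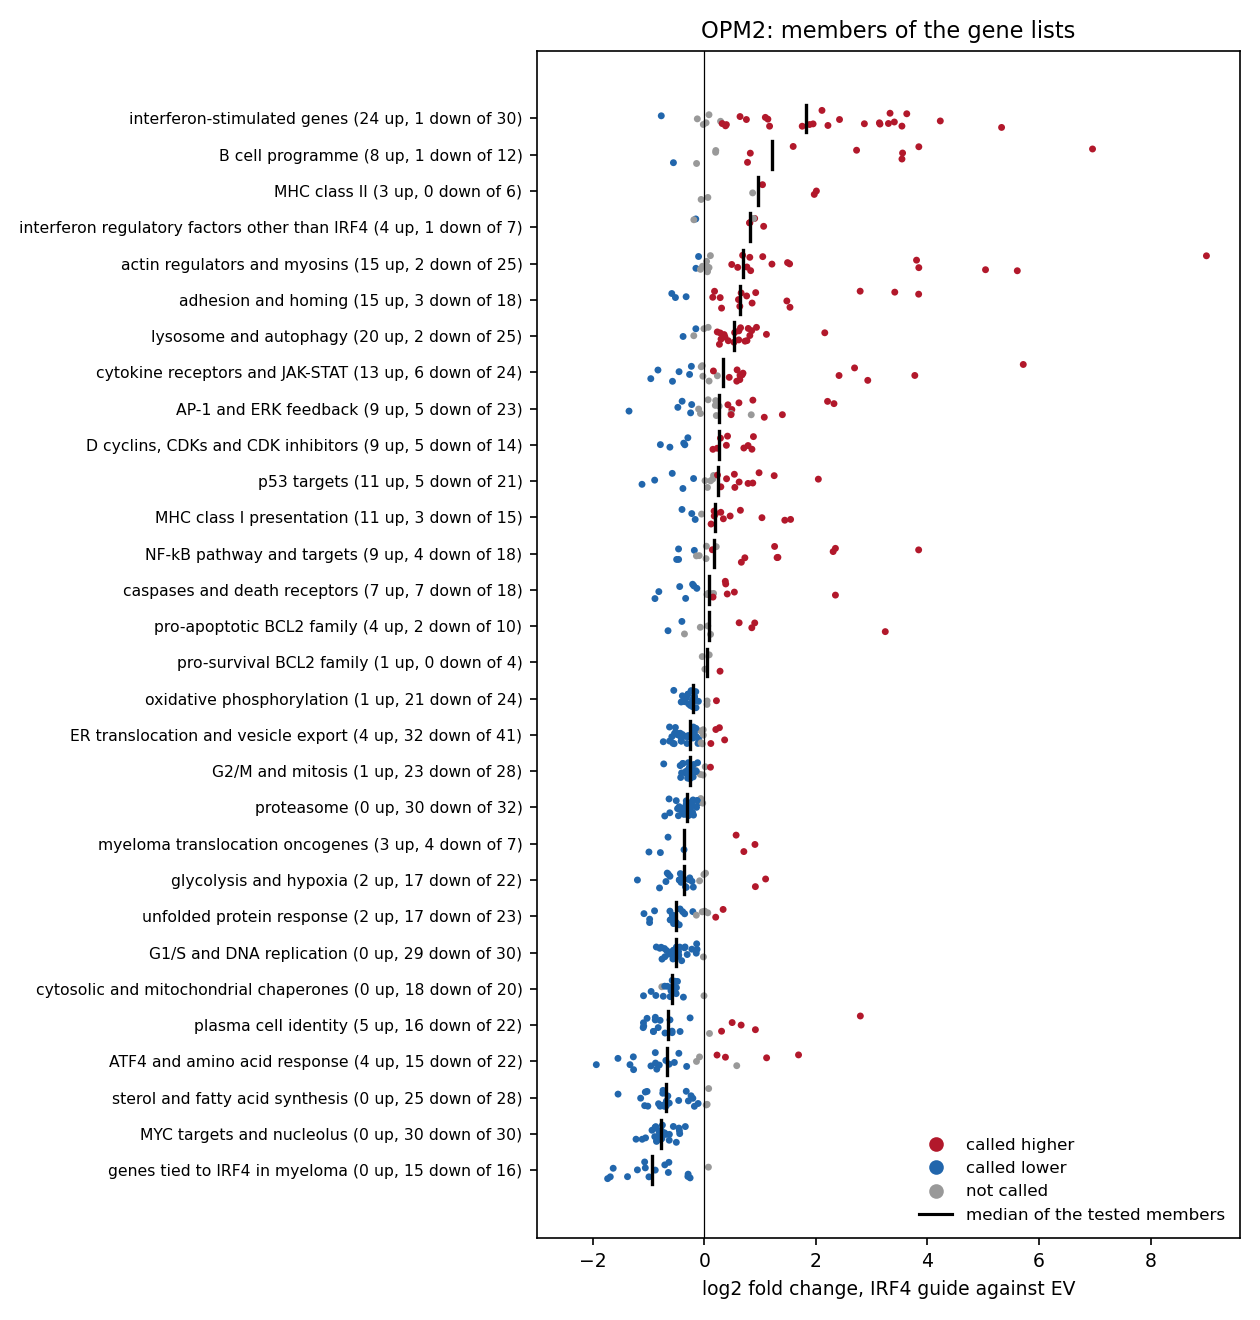
Log2 fold change (x axis, IRF4 guide against EV in OPM2) of every tested member of 30 gene lists (rows, ordered by median), 1 point per gene coloured by call, with a black bar at the median. MYC targets and nucleolus (30 of 30 lower) and proteasome (30 of 32 lower) lie left of 0 as tight groups, while interferon-stimulated genes (24 of 30 higher) spread far to the right.

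Among genes of the B cell stage, which plasma cells silence, several rose from low levels. Of 12 that passed the filter, 8 rose and 1 fell (median 1.21), beside 32.5% and 32.9% of all genes. Another 14 members, including PAX5 and MS4A1, were too low to be tested. A gene low in EV passed only if it was high enough with the IRF4 guide, which bears on the median. On the deposited log2 RPKM, over 22 members, it was 0.28, with 9 higher and 1 lower. SPIB, an ETS factor that pairs with IRF4, was at 16.8, 12.4 and 11.8 against 1.10, 1.34 and 1.22 CPM (3.55 ± 0.17, adjusted p = 4.95e-14). ID3, an inhibitor of E proteins, was at 53.1, 43.6 and 41.7 against 7.28, 5.97 and 7.36 CPM (2.73 ± 0.09, adjusted p = 1.10e-16). The toll-like receptor homologue CD180 was at 24.1, 42.1 and 25 against 0.343, 0.365 and 0 CPM (6.96 ± 0.24, adjusted p = 3.17e-12).

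None of these groups overlapped. BCL6, the germinal-centre repressor that PRDM1 opposes, went from 0.169 to 2.11 CPM (3.54 ± 0.41, adjusted p = 1.12e-07), and CD79B, a chain of the B cell receptor, from 20.1 to 61.3 CPM (1.59 ± 0.07, adjusted p = 6.56e-15). Of 6 tested MHC class II genes 3 rose and none fell, all under 5 CPM, beside 32.5% and 32.9% of all genes. HLA-DMA, a peptide loader, rose from 0.344 to 1.4 CPM (2.01 ± 0.37, adjusted p = 6.06e-05). HLA-DRA and HLA-DQB1 rose by 1.04 ± 0.23 and 1.97 ± 0.40 (adjusted p = 6.09e-04 and 2.61e-04), but neither was called on the deposited log2 RPKM (0.0828 and 0.126), nor HLA-DRA without the block (0.155).

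Interferon-stimulated genes, the antiviral programme downstream of interferon, had the highest median of the 30 lists in that plot, at 1.82. Of 30 that passed the filter, 24 rose, 1 fell and 5 were not called, and 12 were too low to be tested. Over all 42 members, on the deposited log2 RPKM, the median was 0.80, with 25 higher and 2 lower. ISG15, a ubiquitin-like modifier, was at 6.98, 7.33 and 6.72 against 0.724, 0.244 and 0.497 CPM (3.63 ± 0.24, adjusted p = 8.63e-12). DDX60, an RNA helicase, was at 18.6, 17.5 and 13.3 against 1.87, 0.731 and 1.17 CPM (3.54 ± 0.16, adjusted p = 3.70e-14), and PARP14, an ADP-ribosyltransferase, at 11.7, 13.6 and 14.5 against 1.41, 1.95 and 0.949 CPM (3.30 ± 0.18, adjusted p = 1.44e-12). IFI6, a mitochondrial survival protein, was at 10.5, 11 and 8.93 against 1.22, 0.487 and 0.949 CPM (3.33 ± 0.19, adjusted p = 1.18e-12). Each of the 4 rose without overlap, and each stayed below 20 CPM.

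By the mean over all 6 libraries, 15 of the 17 members between 1 and 10 CPM rose, beside 41.1% of all such genes, and 6 of 8 between 10 and 100 CPM, beside 30.9%. Neither of the 2 above 100 CPM was called, and the 3 under 1 CPM rose. The mean over 6 libraries does not remove the choice made by the filter. By the EV mean, 9 members were under 1 CPM and all rose, at a level where the filter could choose them through the IRF4 guide libraries. Between 1 and 10 CPM with EV, 12 of 14 rose, beside 39.0% of all such genes. The sensor gene SAMD9L fell (-0.77 ± 0.15, adjusted p = 0.00724). Of the other IRF genes, 4 of 7 tested rose and 1 fell, beside 32.5% and 32.9% of all genes. IRF1 rose by 0.81 ± 0.06, IRF2 by 0.90 ± 0.08 and IRF9 by 1.06 ± 0.12 (adjusted p = 2.68e-10, 8.36e-10 and 1.09e-07). IRF5 was at 0.82 ± 0.22 (0.00287), a call lost without replicate 3 (0.144) and on the deposited log2 RPKM (0.35, 0.260). The lower call, IRF3 at -0.16 (adjusted p = 0.0137), was lost in 8 of 12 alternatives. MHC class I presentation had 11 risers and 3 fallers among 15 genes (median 0.20, 7 higher without the block), beside the same shares of all genes. It was led by TAPBP (tapasin), which loads peptides, at 161, 165 and 179 against 58.1, 60.2 and 67.9 CPM (1.44 ± 0.05, adjusted p = 1.21e-16).

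The promoters of 6 rising genes are shown for the letters that interferon regulatory factors read. C3AR1, a complement receptor at 45.2, 42.6 and 28.1 against 2.82, 2.56 and 4.34 CPM (3.48 ± 0.31, adjusted p = 0.00150), is shown for its AP-1 composite. Each line holds the 250 bases before a start of the gene, 5′ to 3′ on the gene's strand, from RefSeq (GRCh38.p14). For DDX60 that start is an internal one, since its window lies inside the gene's full span (chr4:168216294-168325979). The windows are chr1:1013247-1013496 (plus strand) for ISG15, chr1:27672193-27672442 (minus) for IFI6, chr4:168318753-168319002 (minus) for DDX60, chr3:122680589-122680838 (plus) for PARP14, chr6:33314079-33314328 (minus) for TAPBP and chr12:8066360-8066609 (minus) for C3AR1. Capitals mark every match, on either strand, to 3 motifs: the interferon-response core (GAAA repeated after 2 free bases), the ETS-IRF composite (GGAA followed after 2 free bases by GAAA) and the AP-1-IRF composite (GAAATGA followed after 1 free base by TCA). Matches can overlap each other, as in ISG15, PARP14 and TAPBP.
ISG15: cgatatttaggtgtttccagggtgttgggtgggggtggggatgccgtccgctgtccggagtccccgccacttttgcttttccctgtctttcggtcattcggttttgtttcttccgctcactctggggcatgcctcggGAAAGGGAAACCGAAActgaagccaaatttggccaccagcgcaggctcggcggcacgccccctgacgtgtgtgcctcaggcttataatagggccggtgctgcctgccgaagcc
IFI6: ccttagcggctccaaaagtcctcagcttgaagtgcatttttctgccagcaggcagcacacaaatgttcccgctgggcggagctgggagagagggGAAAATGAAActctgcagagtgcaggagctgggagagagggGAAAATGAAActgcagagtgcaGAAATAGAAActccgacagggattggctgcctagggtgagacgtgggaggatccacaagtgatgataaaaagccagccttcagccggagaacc
DDX60: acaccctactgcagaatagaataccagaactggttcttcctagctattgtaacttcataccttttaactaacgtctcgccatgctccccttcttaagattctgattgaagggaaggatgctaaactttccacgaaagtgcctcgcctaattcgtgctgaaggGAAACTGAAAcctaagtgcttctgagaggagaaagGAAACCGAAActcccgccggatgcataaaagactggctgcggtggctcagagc
PARP14: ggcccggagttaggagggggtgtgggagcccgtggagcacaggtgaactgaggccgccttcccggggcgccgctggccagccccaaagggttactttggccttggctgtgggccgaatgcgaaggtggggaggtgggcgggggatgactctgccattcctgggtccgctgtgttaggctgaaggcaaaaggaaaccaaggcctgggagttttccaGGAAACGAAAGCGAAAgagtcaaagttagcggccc
TAPBP: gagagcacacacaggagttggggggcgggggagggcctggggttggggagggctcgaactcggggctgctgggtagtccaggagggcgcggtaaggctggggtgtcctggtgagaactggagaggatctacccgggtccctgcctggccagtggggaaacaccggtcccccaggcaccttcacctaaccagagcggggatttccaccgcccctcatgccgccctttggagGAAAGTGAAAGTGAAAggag
C3AR1: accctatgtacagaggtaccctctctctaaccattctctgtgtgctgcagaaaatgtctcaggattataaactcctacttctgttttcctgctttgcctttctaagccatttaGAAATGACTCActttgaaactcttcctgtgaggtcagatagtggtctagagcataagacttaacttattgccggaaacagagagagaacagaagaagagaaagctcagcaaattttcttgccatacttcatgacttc

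The ISG15 and TAPBP windows each hold a pair of overlapping cores, at 113 and 107 and at 20 and 14 bases before the start. IFI6 holds 3 cores, DDX60 2, and PARP14 a composite and a core in 1 stretch. Over whole windows of 300 bases, 50 of them after the start, the core was found in 16 of 24 tested interferon-stimulated genes with a window (66.7%), in 2.77% of 10311 tested genes and in 3.65% of all 27305 windows. It was in 53 of 1022 genes called at least 2-fold higher (5.19%), 3 of 121 at least 2-fold lower (2.48%) and 2.47% of genes not called. The ETS-IRF composite was in 3.33% of the genes at least 2-fold higher and 2.51% of tested genes, and the AP-1-IRF composite in 8 tested genes (0.0776%), 2 of them at least 2-fold higher. None of the 3 letter strings was in the windows of BMF, BCL2L11, PRDM1, KLF2 and IRF4. The same held for the rising genes GSN, LCP1, FN1, ICAM1, IL2RG, BCL6, SPIB and ID3. The 6 windows shown each hold a match, but they were picked by hand, C3AR1 for its composite. They are therefore no contrast to these genes. Lack of a match says nothing of binding, as a match does not.

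Signalling receptors changed in kind. Of 24 cytokine receptor and JAK-STAT genes 13 rose and 6 fell (median 0.34), beside 32.5% and 32.9% of all genes. With EV, 4 of the 24 were under 1 CPM and all rose. At that level the filter could choose them through the IRF4 guide libraries, which bears on the count and the median. IL2RG, the common gamma chain of the IL-2 receptor family, was at 16.3, 16 and 13.4 against 0.381, 0.365 and 0.136 CPM, a 52.6-fold rise (5.72 ± 0.21, adjusted p = 9.62e-16). IL21R, which pairs with it, rose from 3.88 to 24.9 CPM (2.69 ± 0.14, adjusted p = 1.36e-10), its kinase JAK3 by 2.41 ± 0.32 (5.61e-07) and the transducer STAT4 from 0.884 to 12 CPM (3.77 ± 0.21, 8.45e-12). IL6R, the receptor of the main myeloma growth factor, fell from 389 to 200 CPM (-0.96 ± 0.05, adjusted p = 1.19e-11). Of 18 NF-kB genes 9 rose and 4 fell (median 0.18), beside the same shares of all genes. The same limit holds for 4 of the 18, which were under 1 CPM with EV and all rose. The alternative-pathway subunit RELB rose from 12.1 to 29.5 CPM (1.30 ± 0.08, adjusted p = 5.06e-12) and BCL3 from 19.1 to 49.4 CPM (1.32 ± 0.08, 1.11e-10).

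Every one of 18 adhesion and homing genes was called, 15 higher and 3 lower (median 0.65). Among all genes, 65.4% were called, 32.5% higher and 32.9% lower. Over 100 CPM, 5 of 7 members rose and 2 fell, beside 24% and 54.9% of all genes at that level. With EV, 2 members were under 1 CPM and rose, at a level where the filter could choose them through the IRF4 guide libraries. ITGAL, the LFA-1 alpha chain, was at 209, 200 and 223 against 31.2, 22.9 and 35.4 CPM, a 6.93-fold rise (2.79 ± 0.07, adjusted p = 5.22e-15). Its ligand ICAM1 rose from 0.0579 to 1.03 CPM (3.84 ± 0.60, adjusted p = 7.18e-06) and the hyaluronan receptor CD44 by 0.85 ± 0.07 (1.17e-09). The marrow-homing receptor CXCR4 fell by 0.59 ± 0.06 (adjusted p = 1.78e-08, and 0.0667 without the block).

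Of 25 actin regulators and myosins 15 rose, 2 fell and 8 were not called (median 0.69). By the mean over all 6 libraries, all 8 under 10 CPM rose, with 3 of 6 between 10 and 100 CPM and 4 of 11 above. Of all genes, 37.2% rose under 1 CPM, 41.1% between 1 and 10, 30.9% between 10 and 100 and 24% above. With EV, 5 members were under 1 CPM and all rose. At that level the filter could choose them through the IRF4 guide libraries, which bears on the median. The count of lower calls was 0 or 1 in 9 of 12 alternatives. GSN (gelsolin), which severs actin filaments, was at 42.1, 40.8 and 39.3 against 0.952, 0.853 and 0.678 CPM, a 48.9-fold rise (5.61 ± 0.13, adjusted p = 3.09e-19). LCP1 (L-plastin), a leukocyte actin bundler, was at 120, 127 and 91.2 against 9.94, 6.70 and 5.78 CPM (3.84 ± 0.09, adjusted p = 1.15e-16). MYH9, a nonmuscle myosin, had the largest gain in CPM of all genes called higher, at 1622, 1782 and 1527 against 942, 904 and 953 CPM (0.81 ± 0.05, adjusted p = 3.32e-11). MYO7A, a motor of sensory hair cells, had 0 counts in EV and was at least 55.3-fold higher, taking 3 counts over the group as the floor. The other genes of the 5 largest gains were the elongation factor EEF2 (0.27 ± 0.04, adjusted p = 8.04e-06), the translation-linked TPT1 (0.34 ± 0.04, 1.70e-07), BMF and the lncRNA LOC102724908 (1117 against 473 CPM, 1.24 ± 0.04, 3.03e-16). Of 683 tested lncRNAs, 219 rose and 64 fell (median 0.30), beside 32.5% and 32.9% of all genes.

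Of 23 AP-1 and ERK feedback genes 9 rose and 5 fell, beside 32.5% and 32.9% of all genes. The median was 0.26, and 0.05 over 28 members on the deposited log2 RPKM. FOSL2, an AP-1 subunit, was at 63.6, 61.3 and 55.9 against 13.6, 12.5 and 10.1 CPM (2.32 ± 0.07, adjusted p = 7.18e-17), and the kinase phosphatase DUSP10 went from 1.86 to 8.35 CPM (2.21 ± 0.17, 9.14e-11). Among 21 targets of p53, 11 rose and 5 fell (median 0.23), beside the same shares of all genes. SESN1 and BTG2, stress-induced growth inhibitors, rose by 1.25 ± 0.05 and 0.98 ± 0.05 (adjusted p = 8.80e-15 and 1.09e-13), while the p53 ligase MDM2 fell from 159 to 107 CPM (-0.58 ± 0.05, 2.99e-09) and the nuclease AEN from 69.3 to 32.4 CPM (-1.12 ± 0.07, 1.52e-11).

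The 12 largest rises among genes of at least 1 CPM in both groups were in genes of varied tissues. FN1, the matrix protein fibronectin, was at 453, 675 and 381 against 14.7, 14.4 and 16.9 CPM, a 30.1-fold rise (4.91 ± 0.24, adjusted p = 0.00182). Its groups were far apart, but without replicate 1 the adjusted p was 0.0502. MB, the oxygen store myoglobin, was at 77.7, 66.9 and 79.5 against 4.69, 1.83 and 3.70 CPM (4.33 ± 0.11, adjusted p = 6.56e-15). TMEM229B, a membrane protein, went from 2.83 to 48.3 CPM (4.11 ± 0.10, adjusted p = 6.89e-19) and the muscle sodium channel SCN4A from 1.16 to 18.1 CPM (3.91 ± 0.15, 1.30e-15). The mucin-like FCGBP, the neuronal CRMP1, the proton exchanger SLC9A9 and the T cell antigen CD7 rose by 3.56 to 3.78, and LCP1, SPIB, DDX60 and C3AR1, given above, complete the 12.

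The 12 largest falls were smaller. UNC13C, a regulator of vesicle release, was at 5.92, 8.96 and 12.8 against 55.4, 50.4 and 41.8 CPM (-2.45 ± 0.41, adjusted p = 0.0306). Its groups did not overlap, but the adjusted p was 0.143 without replicate 2 and 0.0692 without a filter on low counts. The neurotrophin receptor NTRK2 fell from 5.63 to 1.35 CPM (-2.06 ± 0.21, adjusted p = 9.02e-09) and the phospholipid enzyme PLAAT2 from 11.8 to 2.81 CPM (-2.05 ± 0.15, 3.55e-11). The lipase MGLL, the efflux pump ABCG2, CHAC1, the caveolar proteins CAVIN4 and CAV2, the cortical actin binder CTTN, PECAM1, MYB and TMEFF1 fell by 1.72 to 1.95.

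The 5 highest of the 22 genes with 0 EV counts were the osteoblast factor SP7 at 8.25, 6.90 and 6.38 CPM, the cytotoxic protease GZMA at 6.6, 6.8 and 5.78, the matrix protein OLFML2B at 3.37, 6.03 and 2.72, the sialidase NEU4 at 2.58, 3.21 and 4.04 and the cystatin CST7 at 3.44, 3.16 and 3.15. They were at least 135, 121, 76.2, 61.8 and 61.3 fold higher by the same floor of 3 counts over the EV group. The 22 also held the TNF receptor family members TNFRSF4 (OX40) and TNFRSF18 (GITR) and the chemokine CCL1, at least 12.7, 13.5 and 12 fold higher. GZMA belongs to the T and NK markers. The 3 of 14 that were tested were at or near 0 with EV and passed the filter through the IRF4 guide libraries alone, so that they had to differ. The pore former PRF1 was at 8.46, 7.57 and 11.6 against 0.152, 0.122 and 0.0903 CPM (6.2 ± 0.28, adjusted p = 2.06e-14) and CD3E, a chain of the T cell receptor complex, at 2.82, 2.01 and 1.45 against 0.152, 0 and 0.0903 CPM (4.29 ± 0.45, adjusted p = 1.81e-08). Across the IRF4 guide libraries GNLY had 36 counts and NKG7 none.

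The OPM2 response was then set against the mean response of H929, MM1S and RPMI-8226 in 1 model of all 23 libraries. Of 16468 genes, 3093 (18.8%) differed, 1562 with OPM2 above (9.49%) and 1531 below (9.30%). IRF4 RNA fell less in OPM2 than on average in the other lines, where the changes were -1.60, -1.41 and -1.11, and the difference was 0.71 ± 0.10 (adjusted p = 5.22e-05). BMF rose more than that mean (1.08 ± 0.12, adjusted p = 6.43e-06), at 3.24 in OPM2, with 3.29 in H929, 1.81 in MM1S and 1.4 in RPMI-8226. For BCL2L11 the difference was -0.02 ± 0.08 and was not called, with rises of 0.79, 0.76 and 1.04 in the others.

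**Figure D4:**
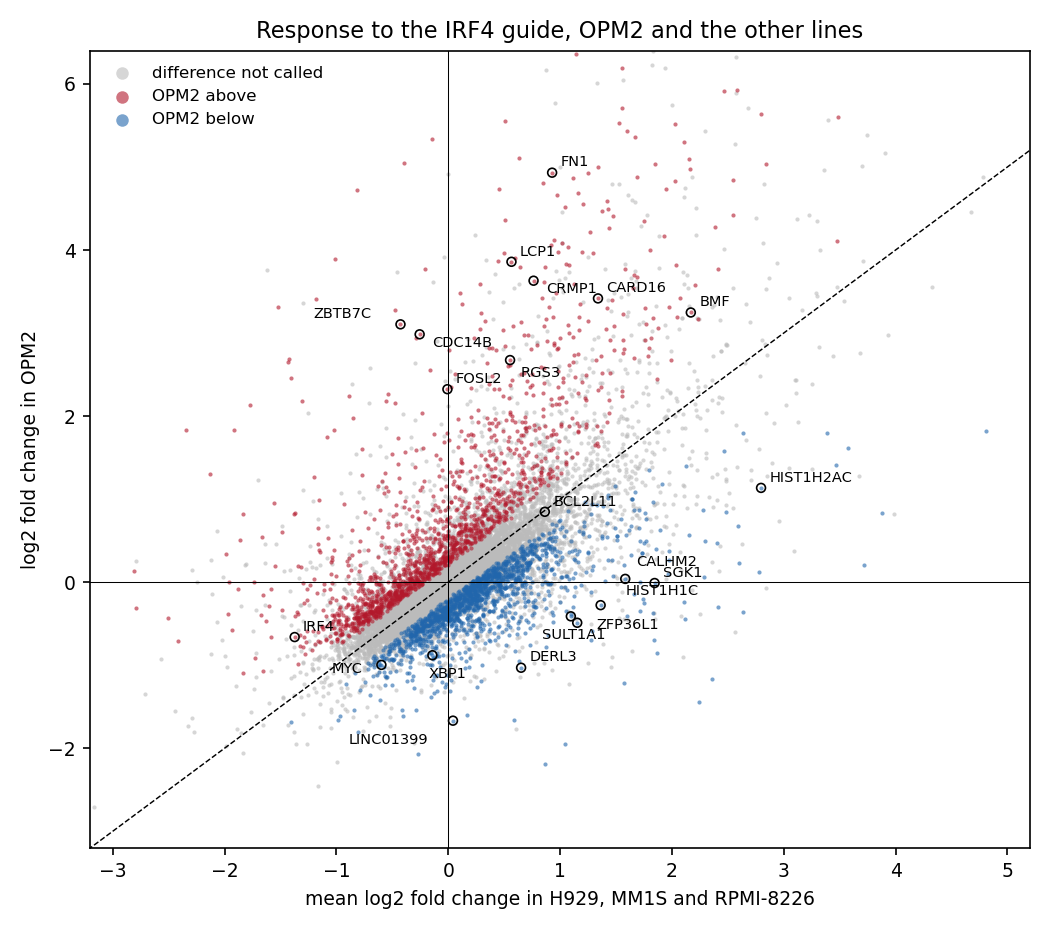
Log2 fold change of each tested gene in OPM2 (y axis) against its mean over H929, MM1S and RPMI-8226 (x axis), coloured by the test of the difference, with the dashed line at equality; 33 genes lie outside the axes. FN1, LCP1 and ZBTB7C stand above the line by 4.0, 3.29 and 3.53, and SGK1 and DERL3 below it, at differences of -1.86 and -1.68.

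Some gene lists were called more often than the 9.30% or 9.49% of all genes. In the unfolded protein response 16 of 23 genes were below the other lines and none above, with medians of -0.51 in OPM2 against -0.20, -0.13 and -0.14 in H929, MM1S and RPMI-8226. That count stayed between 13 and 16 under all alternatives run. Of 22 plasma cell genes 12 were below and 5 above. Of 21 p53 targets 14 were below and 1 above, with medians of 0.23 against 0.56, 0.87 and 0.43, and 10 were below without any 1 of the 3 replicate numbers or without the block. Of 30 interferon-stimulated genes 13 were above and 2 below, with medians of 1.82 against 1.22, 0.53 and 0.53, and between 10 and 18 were above under the alternatives run. Of 30 G1/S genes 23 were above and none below, and the medians were -1.38 and -1.12 in H929 and MM1S, with -0.11 in RPMI-8226, where these genes fell less than in OPM2. That count was 4 without H929, 16 without MM1S or without the block, and 29 without RPMI-8226.

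**Figure D5:**
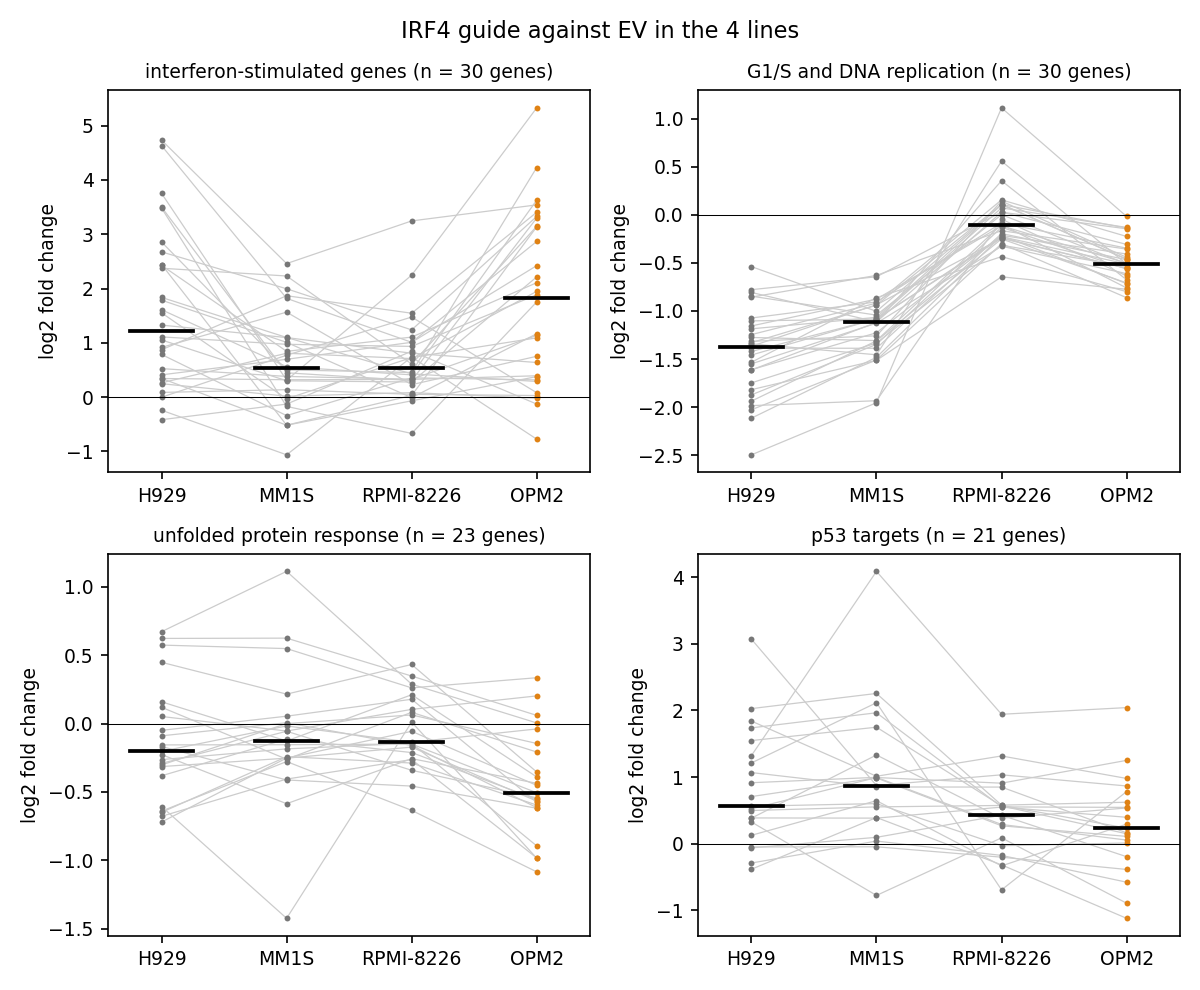
Log2 fold change (y axis, IRF4 guide against EV) of each gene of 4 lists in each of the 4 lines, with thin lines joining the same gene and black bars at the medians. Unfolded protein response genes lie lowest in OPM2 (median -0.51), and G1/S genes in OPM2 (-0.51) lie between RPMI-8226 (-0.11) and the other two lines.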

How the data were processed

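RNA was measured by RNA-seq in 23 libraries of 4 Cas9 myeloma lines, 6 of them OPM2, from RNeasy Plus Mini RNA and TruSeq RNA libraries per the labels' protocols. The authors deposited raw counts per gene and a table of log2 RPKM. Reads were processed with Subread, featureCounts and limma against GRCh38 (hg38), per the submitters' processing notes, which gave no versions. The sources used here did not state whether libraries were stranded, so reads of overlapping and antisense genes cannot be told apart. No column of another series was used (0 such columns).

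Counts were tested in R 4.3.3 with edgeR 4.0.16 (TMM, filterByExpr, quasi-likelihood test, guide plus replicate number, Benjamini-Hochberg over all tested genes, threshold 0.05). The replicate numbers came from the labels. In each of the 3 pairs, deviations from the group means correlated (0.246, 0.216 and 0.273, against -0.178 to -0.0933 for other pairs), so the number was kept as a block. The difference between lines came from 1 model of all 23 libraries with replicate number within line as a block. Replicates differed by more than sampling noise and were kept as separate samples. Promoter windows, coordinates and biotypes came from RefSeq tables of GRCh38.p14, and 10311 of 13095 tested genes had a window.

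On simulated counts over 12468 genes, the OPM2 test recovered 78 of 100 changes of log2 0.5 and 90 of 97 of log2 1, with 6 false calls. For the difference between lines, over 15686 genes, it recovered 51 and 76 of 100, with 3 false calls. Both simulations changed only a small share of genes, as many up as down and none of low counts. A replicate effect shared by both guides was built in. In the OPM2 data 65.4% of genes were called, so these false calls do not measure the rate of false calls or the scaling there. Alternatives were no block, a fit of all 23 libraries, DESeq2 1.42.0, RLE size factors, other filters, limma 3.58.1 on the deposited log2 RPKM, and leaving out each replicate number or other line. Library totals alone was added after seeing the data.

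The comparison, its gene lists and tests were chosen with earlier results of these data known. Genes named were IRF4, its main targets and the BCL2 family, the 12 largest rises and 12 largest falls (called, same direction in all 3 replicate numbers, mean of at least 1 CPM in both groups), the 5 highest genes called from 0 counts, the 5 largest CPM changes in each direction, leading genes of each list, the largest differences between lines and the neighbours of IRF4. Other named genes were chosen after their values were seen, among them ISG15, IFITM1, SP110, BCL6, JCHAIN, CDKN1A, MDM2, ICAM1, MYO7A, TNFRSF4 and CCL1.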

Additional observations from a re-analysis of the deposited data

Results flagged for a closer look

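The response in OPM2 was tested against the mean response of H929, MM1S and RPMI-8226 across all 23 libraries (edgeR quasi-likelihood test, adjusted p under 0.05). Of 214 genes followed one by one, 123 differed, and 42 are given here, chosen for the largest differences or from a list kept for this comparison. Each value in brackets is the OPM2 log2 fold change minus that mean, and below 0 means that OPM2 was lower.

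Above the other lines were the targeted gene and part of the BCL2 family, IRF4 (0.71), BMF (1.08) and PMAIP1 (0.72). Cytokine, adhesion and actin genes stood higher too, IL2RG (4.16), STAT4 (3.98), ITGAL (1.83), GSN (2.12), LCP1 (3.29) and MYO1F (2.19). GSN and MYO1F were at 5.61 and 5.04 in OPM2 and at 5.66 and 5.23 in H929, and their gap to the mean came from MM1S (2.01 and 1.49) and RPMI-8226 (2.78 and 1.81). LCP1 changed by 3.84 in OPM2, 1.90 in H929, -0.03 in MM1S and -0.18 in RPMI-8226. Interferon-stimulated genes were SP110 (2.94), ISG15 (2.76), IFITM1 (2.48) and PARP14 (1.88). PARP14 changed by 3.30 in OPM2, 3.50 in H929, 0.45 in MM1S and 0.31 in RPMI-8226. IFITM1 has near-identical neighbours between which reads can be split. Others were FN1 (4.0), ZBTB7C (3.53), CDC14B (3.24), CRMP1 (2.87), FOSL2 (2.33), RGS3 (2.12), CARD16 (2.08) and CCND3 (1.14). FOSL2 changed by 2.32 in OPM2, 1.43 in H929, -1.06 in MM1S and -0.39 in RPMI-8226.

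Below the other lines were MYC (-0.40), PRDM1 (-0.42), BBC3 (-0.99), BAX (-0.54) and BCL2 (-0.60). The MYC value became 0.0923 without MM1S, and BBC3 was not called without MM1S or without replicate 2 or 3. Secretory genes were DERL3 (-1.68), XBP1 (-0.74), PDIA4 (-0.70) and HSPA5 (-0.32), with DERL3 at -1.03 in OPM2 and 0.95, 0.78 and 0.23 in H929, MM1S and RPMI-8226. Targets of p53 were FDXR (-1.14), AEN (-1.01), ZMAT3 (-0.88) and FAS (-0.76). The rest were SGK1 (-1.86), LINC01399 (-1.71), HIST1H2AC (-1.66), ZFP36L1 (-1.64), HIST1H1C (-1.64), CALHM2 (-1.54), SULT1A1 (-1.51) and SLC7A5 (-0.96). LINC01399 was not called on the deposited log2 RPKM (-1.25, adjusted p = 0.107), and its EV replicate 2, the library with the fewest counts, was at 1.95 CPM against 7.12 and 10.5. Histone and SULT1A1 reads can be shared with near-identical copies.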

How the results depend on the processing

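Over the alternatives run, between 6783 and 8807 genes were called in OPM2. Without the replicate block 6916 genes were called, of which 6907 were among the 8566. On the deposited log2 RPKM 8150 were called, 6701 of them shared and 1 in the opposite direction, and the lower set at 2-fold or more was 640 genes. For the difference between lines, 2043 genes were called and 990 had OPM2 below without the replicate block, and 801 to 980 had OPM2 below without 1 replicate number. The share with OPM2 above was 50.5%, 61.3% without a filter on low counts and 63.7% without replicate 3.

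Of 211 named genes, 179 kept direction and call in every alternative and 9 changed sign, none of these called in OPM2. With library totals alone PMAIP1 was at 0.0376, BCL2 at 0.0719 and SGK1 at 0.0972. On the deposited log2 RPKM BAD was at -0.0597, BCL2 at 0.0664, BCL2L2 at -0.319, CALHM2 at -0.394, FDXR at -0.0197 and FAS at -0.141. Without 1 replicate number BAD was at -0.0221 to 0.124, BCL2L1 at -0.00869 to 0.134, BCL2L2 at -0.106 to 0.19, SGK1 at -0.0676 to 0.107 and CALHM2 at -0.104 to 0.13. BCL2L2 was at -0.0129 without a filter. SGK1 was at 0.00497 without the block, 0.00465 without it over all 23 libraries, 0.000591 with DESeq2 and 0.0132 with a filter of 1 CPM. The difference between lines for BCL2L11 was 0.00832 with DESeq2, 0.00805 with RLE, 0.0256 without a filter, 0.0725 without RPMI-8226 and -0.0153 to 0.0396 without 1 replicate number, and for MYC it was 0.0923 without MM1S. The cause was not tested.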

Other observations

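IGKC, the kappa constant region, was not called in this lambda-expressing line. It was at 0.722, 9.63 and 0.213 CPM with the IRF4 guide and at 1.03, 2.92 and 4.83 CPM with EV, so that replicate 2 of the IRF4 guide stood highest.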
